A study of Mus musculus with 9 samples.

Results

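Bone marrow-derived macrophages grown together with dorsal root ganglion (DRG) sensory neurons were compared across the genome with macrophages grown alone. The comparison takes in 6 of the 9 libraries of the series, 3 co-culture libraries against 3 monoculture libraries, chosen by their labels. All macrophages were grown from bone marrow of mice labelled CX3CR1-gfp/+, which carry green fluorescent protein at the fractalkine receptor locus, in 50 ng/ml M-CSF, the growth factor that drives macrophage development. The monoculture group was grown alone, and the co-culture group together with DRG neurons. The other 3 libraries, with transforming growth factor beta (TGF-β) at 0.02 ng/ml and no neurons, share the estimate of spread and are given side by side. Each group is labelled with a time of 5 days, and the macrophages were sorted on the surface proteins CD11b and CD64. Triplicates come from 3 mice per the design text, which does not say whether the same mice served each condition, nor the age of the mice. DRG cultures also contain satellite glia, Schwann cells, fibroblasts and vessel cells beside neurons, and the labels do not say whether these were removed.

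Macrophages grown from marrow in M-CSF are large adherent phagocytes with abundant lysosomes and a dense cortical actin network. They read their surroundings through Fc, chemokine, cytokine and integrin receptors, and they tune amino acid supply, lipid handling and motility to the signals received. In peripheral ganglia and nerves, resident macrophages lie against neurons and their glia. RNA of neighbouring cells can be carried into a sorted sample, so genes absent from macrophages alone are described apart from genes already abundant there.

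Levels are normalized counts, which are gene read counts divided by 1 factor per library. Depth was 73.4, 91.9 and 135.6 M reads (M, 1e6) in monoculture and 308.8, 133.8 and 166.1 M in co-culture, so that 1 read was worth 0.346 to 1.62 normalized counts. Mitochondrial ribosomal RNA took 10.4 to 11.5% of the counts in monoculture and 12.3 to 15% in co-culture. Its part alone was not tested, but results of a scaling without mitochondrial and small noncoding genes are given below. The sort antigens were present at like levels. Itgam, which encodes CD11b, had 126129, 111716 and 102238 in monoculture and 106922, 97997 and 107329 in co-culture, and Fcgr1, which encodes CD64, had 10098, 12236 and 10573 and 10532, 10596 and 12921. Of 14 macrophage markers 4 rose, 2 fell and 8 did not pass the test. Changes are given as log2 fold changes of the normalized count plus 10, with the standard error of the fit, and "rose" and "fell" are kept for genes with a Benjamini-Hochberg adjusted p under 0.05 in limma. P-values measure the spread between these libraries. In bulk RNA, fewer cells carrying a transcript and less RNA per cell cannot be told apart.

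Co-culture changed 30.8% of the 16328 genes tested, with 2590 higher (15.9%) and 2443 lower (15%). Among the 8314 genes well expressed in monoculture, defined as a monoculture mean of at least 1000 normalized counts, 34.9% were called. In this class falls were more frequent, 1686 genes (20.3%) against 1215 that rose (14.6%), and the excess was larger past 2-fold, with 352 falls and 155 rises. A class set by the monoculture mean takes in genes that fall from a high level and leaves out genes that rise to one. With the class set by the mean of all 9 libraries, 1601 genes fell and 1346 rose, 305 and 242 of them past 2-fold. The median log2 fold change of the well expressed genes was -0.02. The balance depends on scaling. When libraries were set to equal totals without mitochondrial and small noncoding genes, that median was 0.06, and 1707 genes rose (20.5%) and 1348 fell (16.2%). Most changes of well expressed genes were moderate, with a median of 0.47 among the rises and -0.53 among the falls. Among the 8014 tested genes below that level, 1375 rose and 757 fell. Some of these rises were tested only because the co-culture libraries were high. With the filter set on the 6 libraries without neurons, 2137 genes rose and 2412 fell over all tested genes.

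Rankings of leading rises, falls, gains and losses, here and below, take called genes without overlap of the 2 groups. They leave out mitochondrial, ribosomal protein and histone genes, numbered gene models and a set of genes put aside by name. Of the 15 leading rises among well expressed genes, 6 encode receptors of the cell surface: Fcgr2b, Itga9, Mertk, Ccr1, Il17ra and Cd300lf. Fcgr2b, the inhibitory receptor for IgG (ENSMUSG00000026656, chromosome 1, 170958617 to 170976547, minus strand, mm10), had 1911, 1656 and 2027 normalized counts in monoculture 1 to 3 and 22491, 17524 and 17131 in co-culture 1 to 3 (log2 fold change 3.34 ± 0.11, adjusted p = 1.21e-10). Every co-culture library was far above every monoculture library, and the 3 TGF-β libraries lay between, at 3819, 3354 and 3875. Itga9, an integrin subunit that binds tenascin and other matrix ligands, had 1262, 1151 and 1027 alone and 8734, 12889 and 9911 with neurons (3.17 ± 0.14). Mertk, the receptor tyrosine kinase by which phagocytes recognize and engulf apoptotic cells (ENSMUSG00000014361, chromosome 2, 128698956 to 128802894, plus strand), was nearly the same in the 3 monoculture libraries, 3002, 3045 and 3055, and reached 18174, 16266 and 13103 in co-culture (2.37 ± 0.11). It was the macrophage marker with the largest rise. Ccr1, a receptor for inflammatory chemokines such as CCL3 and CCL5, had 6397, 6752 and 5651 in monoculture, 31592, 34097 and 40108 in co-culture and 5019, 5779.8 and 3652 with TGF-β, the last overlapping monoculture. Il17ra, the shared subunit of interleukin 17 receptors, went from 1886 ± 503 to 11881 ± 1637 (mean ± SD, n = 3), and Cd300lf, a lipid-binding inhibitory receptor of myeloid cells, from 1263 ± 347 to 9081 ± 258.

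Other leading rises encode proteins that act inside the cell. Ctsc, the lysosomal dipeptidyl peptidase that activates granule serine proteases (ENSMUSG00000030560, chromosome 7, 88278085 to 88310888, plus strand), had 11616, 12866 and 10709.5 normalized counts in monoculture and 83306, 86695 and 90151 in co-culture (log2 fold change 2.89 ± 0.10, adjusted p = 1.61e-10), with 22214, 23296 and 18309.5 under TGF-β. Sorl1, a sorting receptor that moves cargo between the Golgi and endosomes, had 1205, 1312 and 1096 alone and 6039.5, 8603 and 5589 with neurons. Ssh2, a phosphatase that activates the actin-severing protein cofilin, had 7433, 7763 and 7223 and 35656, 41933 and 30419 (2.26 ± 0.10). Arhgap24, which switches off the small GTPase Rac, went from 1093 ± 194 to 6878 ± 499. Plk3, a stress-responsive kinase of the polo family, went from 1094 ± 241 to 6055 ± 933, and Enc1, an actin-binding Kelch protein, from 1145 ± 108 to 6040.0 ± 925. Absence of overlap between the 2 groups was a condition for a place among the leading genes. It held for 1203 of all 1215 well expressed rises and for 1676 of all 1686 falls. The remaining leading rises were Nxpe5 (2.37 ± 0.12), Ctla2b (2.41 ± 0.23) and Ms4a6b (2.57 ± 0.13); the last 2 have close paralogs, and how shared reads were assigned is not stated. The adjusted p of the 15 leading rises was at most 5.24e-05.

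The leading falls of well expressed genes were steeper than the leading rises. Serpinb9b, an intracellular inhibitor of serine proteases, was almost lost, with 2798, 2682 and 2398 normalized counts alone and 7.28, 7.81 and 5.98 with neurons (log2 fold change -7.27 ± 0.15, adjusted p = 6.99e-13); it has close paralogs. Ptchd1, a membrane protein of the patched family, went from 3178, 3419 and 3754 to 31.2, 19.5 and 15.3 (-6.78 ± 0.18). These 2 genes had at least 2398 counts in each monoculture library and at most 31.2 in any co-culture library. Il1rl1, the receptor for the alarmin interleukin 33 (ENSMUSG00000026069, chromosome 1, 40429570 to 40465415, plus strand), went from 1762, 1712 and 1974 to 43.7, 36.7 and 44.5 (-5.14 ± 0.14), and Itgb7, a leukocyte integrin subunit used in gut homing, from 5063, 3934 and 3395 to 80.4, 64.9 and 235. Fgfr1, a receptor for fibroblast growth factors that fibroblasts and glia express broadly, was lower in co-culture, 149, 148 and 207 against 2884, 3442 and 2824 (-4.11 ± 0.15).

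Several steep falls concerned matrix and membrane organization. Col18a1, a basement membrane collagen, had 39225, 34232 and 32199.9 in monoculture and 2630.5, 2051 and 3662 in co-culture (-3.69 ± 0.19), while Col4a5, another basement membrane collagen chain, went from 4328 ± 183 to 194 ± 98.2. These 2 collagens, well expressed in monoculture, moved opposite to the fibrillar collagens described further on. Emp2, a tetraspan membrane protein, went from 19161, 18495 and 16509.5 to 1081, 1147 and 2033. Cpe, carboxypeptidase E, which trims prohormones, went from 6201, 6313 and 6387 to 169, 262 and 282 (-4.70 ± 0.16), and Dner, a Notch-binding membrane protein first known from neurons, from 3316 ± 237 to 162 ± 96.9. Uchl1, a deubiquitinase used as a neuron marker, was well expressed in macrophages alone (8659, 9986 and 8777) and fell to 549, 431 and 562 (log2 fold change -4.13 ± 0.12, adjusted p = 3.32e-11), with 8853, 10703 and 8049 under TGF-β. The remaining leading falls were Camsap3, which caps microtubule minus ends (-4.76 ± 0.24), the nuclear factor Tox2 (-4.13 ± 0.13), Efr3b, a membrane anchor of a phosphoinositide kinase (-4.12 ± 0.12), and Fam83f (-3.64 ± 0.18). The adjusted p of the 15 leading falls was at most 6.44e-05.

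**Figure D1:**
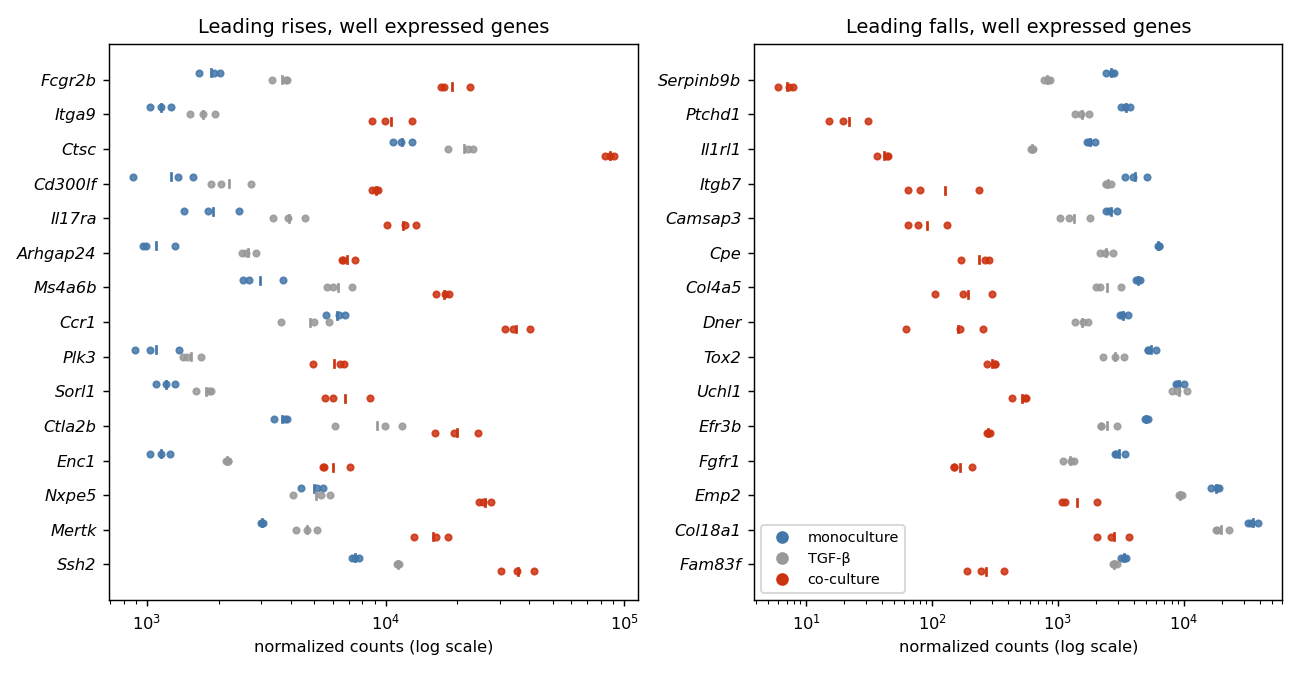
Normalized counts (horizontal axis, log scale) of the 15 leading rises (left) and 15 leading falls (right) among genes well expressed in monoculture. Each point is 1 library, vertical bars are means of 3; blue is monoculture, grey TGF-β and red co-culture. Red and blue points do not overlap for any gene shown, which was a condition for choosing the genes.

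Measured by the amount of RNA gained or lost, lysosomal and complement genes led the gains among the genes ranked. Mitochondrial genes and the genes put aside by name are not part of this ranking. Sepp1, the selenium carrier selenoprotein P, had 70495, 69410.0 and 79891 normalized counts alone and 203803, 168701 and 188467 with neurons (1.35 ± 0.10). For the complement starter C1q, the chain C1qc rose from 41539, 45275 and 39884 to 135359, 129822 and 128542. The chain C1qb rose from 48468, 57487 and 51311 to 124452, 126507 and 119998. Lgmn, the lysosomal asparaginyl endopeptidase, went from 71558, 60546 and 59308 to 149571, 139659 and 141656 (1.18 ± 0.09), and the scavenger receptor Stab1 from 119667, 115235 and 114857 to 259272, 224321 and 182619 (0.92 ± 0.13). Lyz2, lysozyme, rose by 0.66 (adjusted p = 0.00303). The aspartic protease gene Ctsd rose by 0.42 (adjusted p = 0.0326). Its call was lost without robust variance estimates (adjusted p = 0.156). It was also lost without monoculture replicate 2 (adjusted p = 0.0722), monoculture replicate 3 (0.112) or co-culture replicate 1 (0.176).

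Cytoskeletal and storage genes led the losses among the genes ranked. Vim, the intermediate filament vimentin, had 441558, 455451 and 387117 normalized counts alone and 157246, 141040.0 and 172123 with neurons (-1.45 ± 0.11). Flna, the actin crosslinker filamin A, went from 254301, 253829 and 229950.0 to 100128, 119611 and 100718 (-1.21 ± 0.10). Ctsl, a lysosomal cysteine protease, fell (361086, 309650.0 and 292918 to 84637, 72678 and 146704), so that cathepsins did not move as a block. Adam8, a membrane protease, fell by -1.40, Gpnmb, a glycoprotein of lysosome-rich macrophages, by -0.69, Tpt1 by -0.73 and Fth1, the ferritin heavy chain that stores iron, by -0.63 (adjusted p = 0.00325). The Fth1 call was lost without robust variance estimates (adjusted p = 0.061). Actb, cytoplasmic actin, had 1841600.0, 1992090.0 and 1635680.0 alone and 1296120.0, 1329360.0 and 1448360.0 with neurons (log2 fold change -0.42 ± 0.12, adjusted p = 0.013). Its call was lost without robust estimates (adjusted p = 0.302) and without monoculture replicate 2 (0.0701), co-culture replicate 1 (0.0637) or co-culture replicate 2 (0.0541).

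Function was examined next through lists of genes, drawn up by symbol and not as cell type markers, and only their well expressed members were counted. The lists were read against the background of 14.6% higher and 20.3% lower. Where setting libraries to equal totals turns the balance of a list or moves a count past 1.5 times, those counts are given too. The lists differed widely: from ribosomal proteins, where 1 of 80 rose and 1 fell, to the amino acid response, where 10 of 15 fell.

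**Figure D2:**
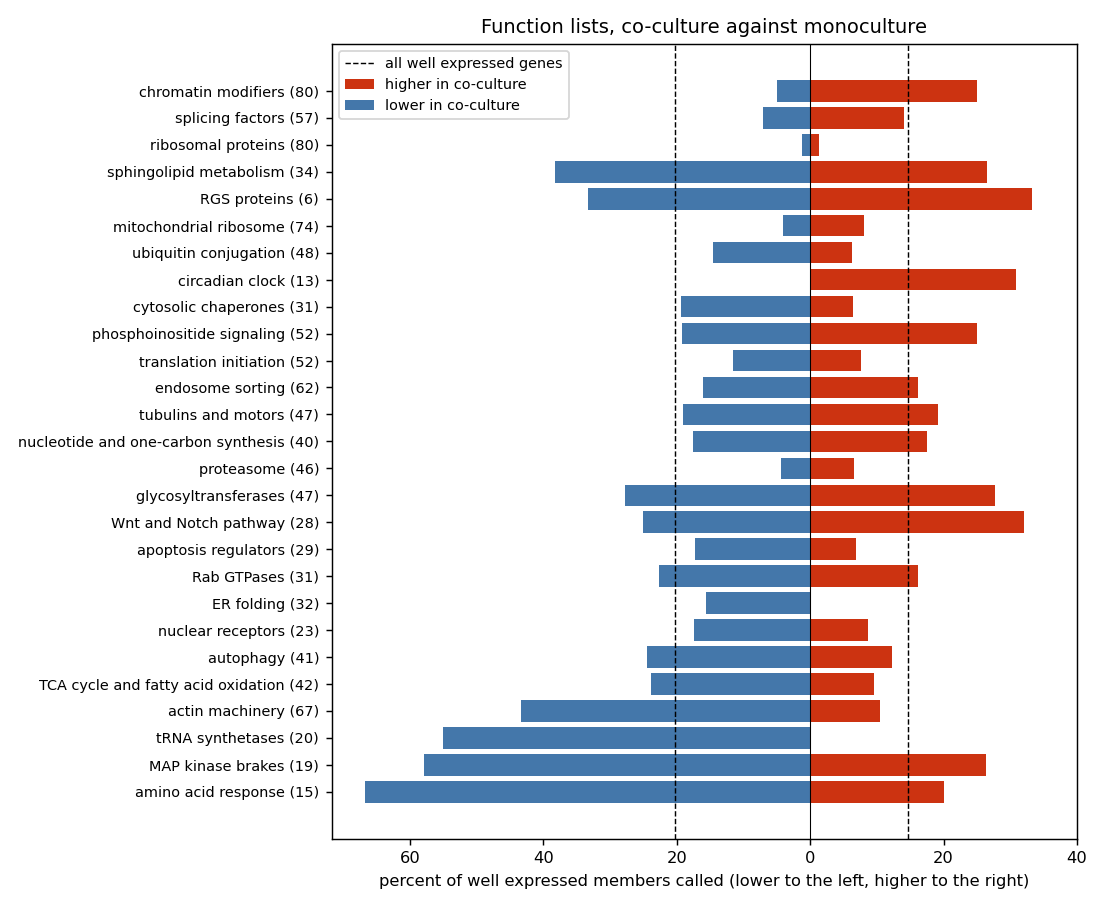
Percent of the well expressed members of function lists that fell (blue, to the left) or rose (red, to the right) in co-culture; the number of well expressed members stands in parentheses, and lists are ordered by median log2 fold change. Dashed lines mark the shares over all well expressed genes, 20.3% lower and 14.6% higher; amino acid response, MAP kinase brakes and tRNA synthetases extend farthest to the left.

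Falls outnumbered rises among genes that supply amino acids and load them on transfer RNA. Of 15 well expressed genes of the amino acid response, which cells turn on through the factor ATF4 when amino acids run short, 10 fell and 3 rose, with a median of -0.46. Phgdh, the first enzyme of serine synthesis (ENSMUSG00000053398, chromosome 3, 98313170 to 98339990, minus strand), had 1637, 1514 and 1661 normalized counts in monoculture and 205, 245 and 183 in co-culture (log2 fold change -2.88 ± 0.13, adjusted p = 1.19e-09). Asns, asparagine synthetase (ENSMUSG00000029752, chromosome 6, 7675169 to 7693254, minus strand), had 6249.6, 6589 and 6095 and 1116, 1664 and 1444 (-2.17 ± 0.12), and Mthfd2, a mitochondrial enzyme of folate metabolism, 8179, 7034 and 6813 and 3064, 3957 and 3333 (-1.09 ± 0.11). Groups were well apart for all 3, and the TGF-β libraries had 1063, 1040.2 and 1057 for Phgdh and 4070.3, 4078 and 4049.6 for Asns. Atf4 itself fell less, -0.49 ± 0.09, as did Psph, another enzyme of the serine pathway (-0.53 ± 0.13), Shmt2, which splits serine into glycine and a one-carbon unit in mitochondria (-0.46 ± 0.10), and the amino acid carriers Slc7a1 (-0.73), Slc1a5 (-0.43) and Slc7a5 (-0.41). The members that rose were Sesn2, a leucine sensor (0.41), Slc3a2, the partner chain of several amino acid carriers (0.35), and Cebpb, a transcription factor (0.32).

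Of 20 cytosolic aminoacyl-tRNA synthetases, all of them well expressed, 11 fell and none rose, with a median of -0.24. The falls were small. Cars, the cysteine enzyme, had 7834, 7075 and 7622 normalized counts alone and 4441, 4753 and 4351 with neurons (log2 fold change -0.73 ± 0.09, adjusted p = 1.40e-05). Gars, for glycine, had 17973, 17039.7 and 16073 and 11609, 12498 and 12035 (-0.50 ± 0.08), and Eprs, for glutamate and proline, 25026, 23704 and 22603 and 16371, 17956 and 17898 (-0.45 ± 0.08). The smallest called fall was Qars, at -0.21 ± 0.07. Each of these kept the groups apart at less than 2-fold. Over the alternative analyses 7 to 12 synthetases fell and 0 rose.

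The promoters of some of these genes hold the composite element to which ATF4 binds as a dimer, searched as TGATGNAA on both strands from 250 bases before to 50 after the RefSeq start (GRCm38.p6). Promoters of 6745 of the 8314 well expressed genes could be matched, and 2.65% of them hold the letters. For the synthetases 13 of 20 matched, under 80%, so a share for the list is void; the letters stood in 5 of those 13, 4 of them in genes that fell. Of the amino acid response 13 of 15 matched, and 1 of these, Asns, holds it. The stretches are shown because these genes fell together; the capitals mark the element, read on the gene's strand, and a match is not evidence of binding.
Asns, chr6:7693200-7693257, minus strand: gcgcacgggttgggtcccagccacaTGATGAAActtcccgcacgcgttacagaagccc
Gars, chr6:55037946-55038003, plus strand: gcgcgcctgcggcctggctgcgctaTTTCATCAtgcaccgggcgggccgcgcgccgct
Iars, chr13:49682112-49682169, plus strand: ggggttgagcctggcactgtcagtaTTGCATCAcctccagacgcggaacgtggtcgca
Yars, chr4:129189881-129189938, plus strand: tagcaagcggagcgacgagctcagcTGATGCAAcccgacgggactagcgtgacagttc
Aars, chr8:111033705-111033762, plus strand: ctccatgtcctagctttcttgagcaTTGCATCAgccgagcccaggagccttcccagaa
In Asns and Yars the element reads in the gene's direction, and in Gars, Iars and Aars it reads as its complement.

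The actin machinery was the list with the most falls in number. Of 67 well expressed members 29 fell and 7 rose, with a median of -0.19. Vcl, vinculin, which ties integrin adhesions to actin (ENSMUSG00000021823, chromosome 14, 20929398 to 21033676, plus strand), had 12238, 10767 and 11228 normalized counts alone and 3606, 4196 and 3601 with neurons (log2 fold change -1.59 ± 0.09, adjusted p = 1.29e-08). Tpm1, a tropomyosin that stabilizes filaments, had 21966, 23693 and 22293 and 10112, 10886 and 11052 (-1.08 ± 0.08), and Zyx, zyxin of focal adhesions and stress fibres, 19619, 18768 and 17539 and 9484, 9374 and 10428 (-0.93 ± 0.08). The groups stood far apart for all 3. Other adhesion and bundling genes fell as well: the severing protein Gsn (-1.03), the capping protein Capg (-0.98), Actn1 (-0.65), Tln1 (-0.44), and the ARP2/3 subunits Actr3 (-0.42) and Actr2 (-0.28). Those that rose were Cotl1 (0.66), the formin Diap2 (0.63), the membrane linker Ezr (0.52), Vasp (0.39), Svil (0.32), Twf1 (0.30) and Myl12b (0.26). With equal totals 26 fell and 13 rose. Not every abundant actin gene moved: Myh9, the nonmuscle myosin heavy chain, had 218606, 197454 and 183742 and 206306, 224908 and 198366, and the membrane linker Msn 172720.0, 157307 and 134155 and 150763, 145501 and 144745.

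The CArG box, the element of serum response factor, is shown for this list because that factor is known for driving actin genes. It was found by a script on both strands in 3 of 24 fallen actin genes with a promoter (12.5%), in 4 of 56 of the whole list (7.14%) and in 1.54% of matched well expressed genes. The 3 genes were Vcl, Actg1, the other cytoplasmic actin (-0.79 ± 0.11), and Myl6, a myosin light chain (-0.42 ± 0.11). The capitals mark the box.
Vcl, chr14:20929148-20929205, plus strand: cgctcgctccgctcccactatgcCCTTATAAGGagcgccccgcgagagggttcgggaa
Actg1, chr11:120348551-120348610, minus strand: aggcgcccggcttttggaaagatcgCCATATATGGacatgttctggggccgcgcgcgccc
Myl6, chr10:128493025-128493084, minus strand: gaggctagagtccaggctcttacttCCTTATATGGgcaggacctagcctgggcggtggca

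Single switches upstream of actin moved in both directions and farther. Tiam1, an exchange factor that turns on Rac, had 8395, 7947 and 7938 normalized counts alone and 815, 695 and 855 with neurons (log2 fold change -3.35 ± 0.10, adjusted p = 4.00e-11). Rhoq, a GTPase of the Cdc42 class, moved the other way, 2375, 2317 and 2220.0 and 6386, 5937 and 5711 (1.38 ± 0.08). With Tiam1 lower and the Rac brake Arhgap24 higher, a Rac activator and a Rac inactivator moved in opposite directions. Further genes of this kind that fell past 2-fold were Arhgap6 (-1.96), Rhoj (-1.89), Rnd3 (-1.79), Arhgap10 (-1.07) and Arhgef10l (-1.02), and Arhgap19 (1.48) and Dock4 (1.27) rose past 2-fold. Of 47 tubulins and motors 9 rose and 9 fell (10 and 6 with equal totals). Tubb2a, a tubulin, went from 13457, 11755 and 10748 to 5570.1, 5736 and 6117 (-1.04 ± 0.09), the motor Kif3c from 2604 ± 245 to 1237 ± 63.5, and the motor Kif21b rose from 4199, 4852 and 5021 to 11474, 12062 and 9862.

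Brakes on MAP kinase signaling, the dual-specificity phosphatases and the Sprouty, Spred and Ras GTPase-activating proteins, mostly fell. Of 19 well expressed members 11 fell and 5 rose, with a median of -0.37. Dusp4, a nuclear phosphatase of ERK and related kinases, had 7490.1, 8375 and 6911 normalized counts alone and 1612, 1643 and 1431 with neurons (log2 fold change -2.27 ± 0.10, adjusted p = 9.75e-10). Rasa1, a Ras brake, had 23279, 23780.5 and 24034 and 13661, 12579.8 and 13836 (-0.83 ± 0.08). Dusp6, the cytoplasmic phosphatase of ERK, went against its relatives, 15544, 14642 and 13540.1 and 28266, 30669 and 27278 (0.98 ± 0.11). The falls also included Dusp5 (-1.18), Dusp1 (-0.88), Spry2 (-0.75) and Spred1 (-0.63), and the rises Rasa2 (0.82), Rasal3 (0.79), Nf1 (0.73) and Rasa3 (0.29).

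Other signaling lists were mixed. In phosphoinositide signaling 13 of 52 rose and 10 fell. Pik3ap1, an adaptor of PI3 kinase, had 58396, 57849.5 and 53660.0 and 29562, 30509 and 32373 (-0.88 ± 0.08), and the regulatory subunit Pik3r5 also fell (-0.91 ± 0.09). Among RGS proteins, which shorten G protein signals, 2 of 6 rose and 2 fell: Rgs18 (-1.32 ± 0.10) and Rgs14 (-0.99 ± 0.10) were lower, and Rgs1 was higher, 15602, 14718 and 22859 against 38305, 31027 and 36212 (1.01 ± 0.15). Of 28 genes of the Wnt and Notch pathways 9 rose and 7 fell. The Wnt effector Tcf7l2 had 1903, 2078 and 1676 and 4166, 4743 and 4939 (1.29 ± 0.10), and the Wnt coreceptors Lrp6 (1.08) and Lrp5 (0.70) rose. On the Notch side the ligands Jag1 (-1.88) and Jag2 (-1.05), the effector Rbpj (-0.71) and the inhibitor Numb (11202, 11283 and 10277 to 5488, 5378 and 5452) fell, while the ubiquitin ligase Dtx4 (1.26 ± 0.09) and Notch1 (0.50) rose. Of 13 circadian clock genes 4 rose and none fell: the repressor Bhlhe40 had 1547, 1711 and 1160.0 and 5726, 5701 and 6786 (2.05 ± 0.16), and its relative Bhlhe41 (0.83 ± 0.09), the kinase Csnk1e (0.66 ± 0.09) and Clock (0.49) rose less.

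Chromatin modifiers leaned upward. Of 80 well expressed members 20 rose (25%, against 14.6% over the class) and 4 fell (5%), with a median of 0.16. Chd7, a nucleosome remodeler, had 1861, 2217 and 2305 normalized counts alone and 8544, 9567 and 7285 with neurons (log2 fold change 1.98 ± 0.11, adjusted p = 1.17e-08), Chd9 had 5181, 5406 and 5703 and 11133, 12761 and 9175 (1.01 ± 0.11), and the histone demethylase Kdm7a 4694, 4818 and 5061 and 8057, 8637 and 7339 (0.72 ± 0.09). Co-culture libraries were above all monoculture libraries for these 3, whereas the TGF-β mean of Kdm7a, 4008 ± 289, was under the monoculture mean of 4858 ± 186. The 4 that fell were Hdac5 (-0.77), Hdac10 (-0.75), Ezh1 (-0.35) and Sirt1 (-0.24). Over the alternatives 12 to 25 rose and 2 to 7 fell, with 25 and 2 at equal totals. Splicing factors leaned the same way by their median, 0.15, with 8 of 57 higher and 4 lower. Hnrnpa1 (0.53 ± 0.12) and Ptbp3 (0.46 ± 0.10) rose and Mbnl1 fell (-0.70 ± 0.08). The count for splicing depends on scaling, since 25 rose and 1 fell with equal totals.

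Transcript length and GC content moved with the direction of change. The well expressed genes were cut into 5 classes of equal size by each property. The share that rose was 8.92% in the class with the shortest merged exons and 24.4% in that with the longest, and 21.6% at the lowest GC content against 10% at the highest. Falls went the other way with GC, 12.5% in the lowest and 26.7% in the highest class. The chromatin modifiers are long, with a median of 8 kb against 4.84 kb for all well expressed genes. The actin list (4.03 kb, 51.4% GC) and the synthetases (4.84 kb, 49.8% GC) were near the whole class, whose median GC was 49.1%. When each library's length and GC trend was removed, 17 chromatin modifiers rose and 6 fell, and 28 actin genes and 12 synthetases fell.

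**Figure D3:**
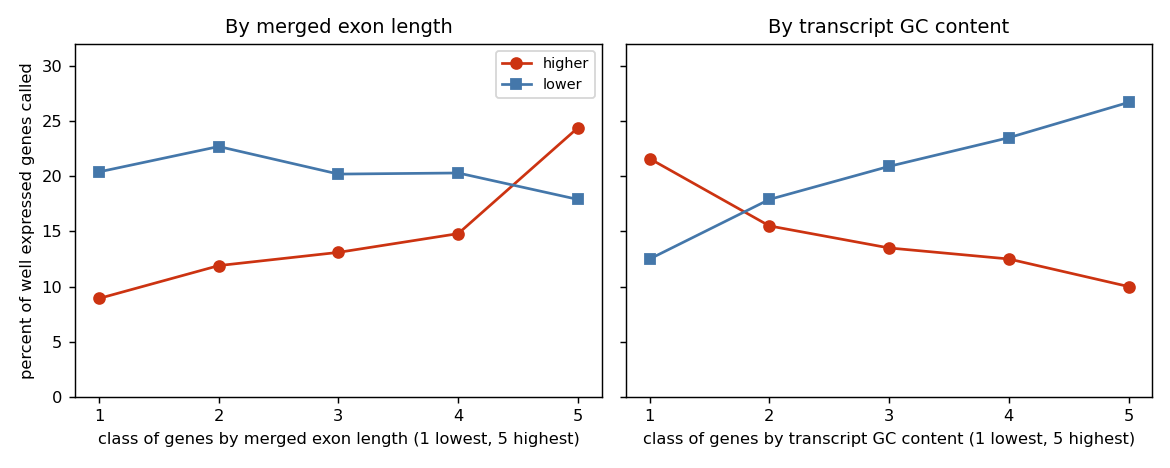
Percent of well expressed genes that rose (red circles) or fell (blue squares) in co-culture, by 5 classes of merged exon length (left) and of transcript GC content (right). The share that rose goes from 8.92% to 24.4% with length and from 21.6% to 10% with GC content.

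Metabolic lists held large changes of single genes in both directions. Nuclear receptors had 2 rises and 4 falls among 23 (3 and 2 with equal totals). Pparg, a lipid-sensing receptor of macrophages, had 3092, 2276 and 2709.7 normalized counts alone and 394, 506 and 435 with neurons (log2 fold change -2.57 ± 0.13, adjusted p = 4.92e-09), while its relative Ppard rose, 1088, 1117 and 1038 and 3750.0, 3539.8 and 3284 (1.69 ± 0.09), as did their partner Rxra (1.08 ± 0.10). The PPAR genes thus moved in opposite directions. Sphingolipid metabolism had 13 falls and 9 rises among 34. St3gal5, which makes the ganglioside GM3, had 27915, 30449 and 26809.8 and 6370.4, 6730.2 and 9063 (-1.96 ± 0.12), and the sphingomyelin synthase Sgms1 7602, 7303 and 7355 and 3494, 3336 and 3378. The lysosomal enzymes Galc (0.61), Asah1 (0.49), Neu1 (0.25) and the activator Gm2a (0.37) rose. The lysosomal sphingomyelinase Smpd1 fell (-0.78), as did the ceramide synthases Cers6 (-0.74), Cers2 (-0.48) and Cers5 (-0.41).

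Of 47 glycosyltransferases 13 rose and 13 fell (18 and 11 with equal totals), with B3gnt3 (-1.57 ± 0.10) and B4galt6 (-1.28 ± 0.10) lower. In the TCA cycle and fatty acid oxidation 10 of 42 fell and 4 rose (6 and 6 with equal totals). Echs1, an enzyme of fatty acid oxidation, rose (2382, 2368 and 2486 to 5644, 5213 and 4897), while Hadhb of the same pathway (-0.65 ± 0.10) and Pdp1, which activates pyruvate dehydrogenase (-0.99 ± 0.13), fell. Of 40 genes of nucleotide and one-carbon synthesis 7 rose and 7 fell (9 and 6 with equal totals). Mtr, the methionine synthase, had 4667, 4753 and 4621 and 9345, 10702 and 8839 (1.03 ± 0.09), and the purine genes Adss (-0.99 ± 0.11) and Adk (-0.74 ± 0.08) fell.

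The lists of protein production and quality control held few calls. Of 80 well expressed ribosomal protein genes (3 rises and 1 fall with equal totals) Rpl22l1 rose (0.47 ± 0.14) and Rpl10 fell (-0.36 ± 0.09), and the Rpl22l1 call was lost without monoculture replicate 2 (adjusted p = 0.0755) or co-culture replicate 1 (0.061). Of 74 mitochondrial ribosomal genes 6 rose and 3 fell (12 and 0 with equal totals), led by Mrpl52 (2544, 2338 and 2875 to 8329, 9174 and 8779, 1.76 ± 0.13). Translation initiation had 4 rises and 6 falls of 52 (9 and 5 with equal totals), with the amino acid sensing kinase Eif2ak4 higher (0.65 ± 0.11) and Eif2d (-0.52 ± 0.08) and Eif4ebp1 (-0.45 ± 0.08) lower. Of 46 proteasome genes 3 rose and 2 fell (3 and 1 with equal totals), and the log2 fold changes of the well expressed members lay between -0.30 and 0.33. ER folding had no rise and 5 falls of 32, with the stress sensor Atf6 the largest, 16151, 15940.4 and 14958 to 9399.7, 9824 and 9488 (-0.71 ± 0.07); with equal totals 3 rose and 3 fell. Cytosolic chaperones had 6 falls and 2 rises of 31 (6 and 5 with equal totals), among the falls Dnajb4 (-1.40 ± 0.12), Ahsa1 (-0.93 ± 0.12) and Bag3 (-0.64 ± 0.10).

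Lists of vesicle traffic and degradation were closer to the background. Of 41 autophagy genes 10 fell and 5 rose. The cargo receptor Sqstm1 had 46474, 47124 and 39488 normalized counts alone and 21683, 19089.7 and 20129.8 with neurons (-1.12 ± 0.09), and the lysosome regulators Mitf (-1.01 ± 0.10) and Tfeb (-0.66 ± 0.12) fell while the kinase Ulk2 rose (0.63 ± 0.10). Of 31 Rab GTPases 5 rose and 7 fell (6 and 5 with equal totals). Rab32, which directs cargo to lysosome-related organelles, had 5220.2, 6310.3 and 5225 and 22424, 20763 and 19151 (log2 fold change 1.90 ± 0.11, adjusted p = 1.50e-08), and Rab20, a GTPase of phagosome maturation, 1315, 1327 and 1047 and 3029.6, 3297 and 3545 (1.42 ± 0.12). Endosome sorting had 10 rises and 10 falls of 62 (13 and 7 with equal totals), with Vps54 (1.18 ± 0.11), Snx18 (0.80 ± 0.09) and Snx6 (0.73 ± 0.08) higher. In ubiquitin conjugation 7 of 48 fell and 3 rose, but with equal totals 5 fell and 10 rose. Ube2l6, the conjugating enzyme of the interferon-induced modifier ISG15, had 5886, 6134 and 6031 and 1420.2, 1217 and 1490.3 (log2 fold change -2.13 ± 0.09, adjusted p = 9.75e-10). Among 29 apoptosis regulators 5 fell and 2 rose (4 and 6 with equal totals), the falls including Diablo (-0.47 ± 0.09) and Bcl2l1 (-0.45 ± 0.11).

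Symbol families, formed with no list in mind from every symbol root with at least 15 well expressed members, gave 47 groups. The Trim genes are ubiquitin ligases of which many act in antiviral defence. They had the largest share of falls: 12 of 30 fell (40%, against 20.3% over all well expressed genes) and none rose. Trim2 fell most (1182, 1039 and 1572 to 334, 382 and 327, log2 fold change -1.81 ± 0.20, adjusted p = 1.10e-05), followed by Trim16 (-1.06), Trim25 (-0.88), Trim35 (-0.84), Trim30d (-0.73), Trim36 (-0.62), Trim34a (-0.54), Trim3 (-0.47), Trim14 (-0.45), Trim47 (-0.44), Trim30a (-0.40) and Trim21 (-0.37). With equal totals 11 fell and 1 rose. Trim30a and Trim30d are near-identical neighbours whose reads may be split uncertainly. Half-sites of the interferon-stimulated response element, searched as TTTCNNTTT on both strands, stand in 9.61% of matched well expressed promoters. Only 7 of the 12 fallen Trim genes had a promoter, under 80%, so a share is void. The letters stood in 5 of those 7, Trim30a and Trim30d included. They also stood in 9 of the 21 well expressed Trim genes with a promoter, fallen or not. Whether the letters go with the falls was not tested. Trim21 and Trim34a are shown because they lie in the fallen group, with the capitals marking the half-sites.
Trim21, chr7:102565435-102565493, minus strand: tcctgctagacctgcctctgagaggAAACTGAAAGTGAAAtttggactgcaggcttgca
Trim34a, chr7:104244442-104244500, plus strand: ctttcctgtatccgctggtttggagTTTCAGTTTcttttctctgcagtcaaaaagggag
In Trim34a the letters read in the gene's direction, and in Trim21 the complement occurs with overlap, 2 matches in all.

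The next largest shares of falls were 8 of 23 Arhgap genes (34.8%), 9 of 28 Map genes (32.1%), 42 of 136 solute carriers (Slc, 30.9%) and 6 of 22 Cdk genes (27.3%). Over all well expressed genes 20.3% fell and 14.6% rose. The carriers also rose often, 26 of 136 (19.1%), and rises numbered 4 for Arhgap, 3 for Map and 3 for Cdk. Carriers that fell included Slc28a2 for nucleosides (-2.09 ± 0.10), Slc2a3 (-1.30 ± 0.15) and Slc2a1 (-0.64 ± 0.13) for glucose, Slc16a3 for lactate (-0.54 ± 0.15) and Slc11a1, the phagosomal metal pump (-1.02 ± 0.11). Carriers that rose included Slc7a7 for basic amino acids (1.55 ± 0.12), Slc39a8 (1.12 ± 0.09) and Slc39a14 (0.78 ± 0.13) for zinc, Slc29a3, the lysosomal nucleoside carrier (1.09 ± 0.09), and Slc40a1, the iron exporter ferroportin (0.73 ± 0.15). Ferroportin thus rose while the iron store gene Fth1 fell. The largest share of rises was in the kinesin motors, 8 of 23 Kif genes (34.8%), followed by Klhl (5 of 17, 29.4%), Phf (4 of 16, 25%), Ankrd (5 of 21, 23.8%) and Usp (8 of 36, 22.2%). Falls in these families numbered 2 for Kif, 3 for Klhl, 4 for Phf, 4 for Ankrd and 6 for Usp, so Phf fell as often as it rose. Over the alternative analyses 7 to 9 Kif, 3 to 5 Klhl, 2 to 6 Phf, 1 to 6 Ankrd and 4 to 10 Usp genes rose.

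Part of the most abundant macrophage transcriptome did not differ detectably. The 10 most abundant genes within 0.1 of no change on the log2 scale were Psap (0.03 ± 0.11), Hspa8 (0.00 ± 0.11), Dab2 (0.05 ± 0.11), Myh9 (0.07 ± 0.10), Hsp90ab1 (0.05 ± 0.10), Msn (-0.07 ± 0.11), Lamp1 (-0.03 ± 0.09), Ybx1 (-0.00 ± 0.11), Tubb5 (0.01 ± 0.10) and Hsp90b1 (0.03 ± 0.09). They include Psap, the precursor of the saposins of lysosomes, with 362474, 310363 and 296012 normalized counts alone and 358826, 320871 and 309606 with neurons, and Lamp1, a lysosomal membrane protein, with 143433, 154959 and 145436 and 153649, 136172 and 145928. Standard errors of 0.09 to 0.11 leave room for changes of that size and larger. The 10 genes were chosen for estimates within 0.1 of no change.

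The rises were then read for RNA that could come from other cells of the DRG culture. Markers of such cells rose in all 3 co-culture libraries. Of 20 tested fibroblast markers 20 rose, and 6 passed the filter on the 6 libraries without neurons; the remaining 14 reached the test through the co-culture libraries alone. Their summed level was 141 to 297 normalized counts in monoculture, 219 to 450.2 with TGF-β and 11330 to 16010 in co-culture. Col1a1, a fibrillar collagen chain, had 43.8, 18.4 and 10.1 alone and 1818, 2589.6 and 2561 with neurons, and the matrix protein Sparc 29.2, 47.2 and 5.42 and 1595, 2395 and 2664. Of 7 tested mural cell markers 7 rose, of which 5 passed the filter without neurons, with Acta2, smooth muscle actin, at 115, 166 and 110.0 and 927, 1719 and 1141; the list summed to 274 to 495 in monoculture, 964 to 1486 with TGF-β and 3017 to 4849 in co-culture.

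Glial markers were mixed. Of 20 tested Schwann and satellite glia markers 12 rose and 5 fell, and of the 11 that passed without neurons 3 rose and 5 fell. Sox10, the defining transcription factor of peripheral glia, had 0, 0 and 0.775 in monoculture, 0, 0 and 0 with TGF-β and 122, 101 and 217 in co-culture, and the adhesion molecule Ncam1 6.49, 6.91 and 4.65, 0, 0 and 0 and 266, 305 and 364. The list's sum fell, from 71610 to 87510 in monoculture to 28530 to 38010 in co-culture, because Pmp22, a tetraspan protein of myelin that these macrophages transcribe, dominates it (71670.3, 65986 and 56831 alone, 16759, 14747 and 20625 with neurons). Neuronal RNA was near the floor. Of 23 sensory neuron markers measured, 6 reached the test. Tubb3, a tubulin, rose (55.2, 8.06 and 17.8 to 88.0, 87.5 and 102) and Uchl1 fell. The peptide gene Calca had 0, 0 and 3.32 in co-culture, the synaptic gene Snap25 0, 0 and 1.99, the sodium channel gene Scn9a 0.693, 0.781 and 1.33 and the growth cone gene Stmn2 5.54, 3.91 and 25.9. Co-culture 3 held the most Stmn2. Of 7 tested endothelial markers 4 rose and 3 fell, and of the 6 that passed the filter without neurons 3 rose and 3 fell. The falls included Vwf and Kdr, which were well expressed alone (6023 ± 145 and 2052 ± 224). Of 2 neutrophil markers 1 rose, Prtn3 (0, 0 and 0.775 to 35.3, 14.8 and 13.3), which did not pass the filter without neurons, of 2 dendritic cell markers none was called, and no lymphocyte marker reached the test.

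Reads of the other sex were looked at next. By the Y-linked genes and Xist, replicate 1 of each group was male and replicates 2 and 3 were female. Ddx3y, on the Y chromosome, had 8547, 0 and 0 normalized counts in monoculture 1 to 3, 8549, 0 and 0 with TGF-β and 10040.0, 57.8 and 58.5 in co-culture. The 4 Y-linked genes in the female co-culture libraries stood at 0.259 to 0.686% of their level in male co-culture 1. Xist, which is transcribed from the inactive X, had 3.25, 37581 and 58071 in monoculture and 222, 89509 and 59181 in co-culture, so male co-culture 1 held 0.298% of the female co-culture mean. Other-sex reads were thus higher in co-culture than in monoculture in each library compared. Reads from cells of the DRG culture and reads from another library cannot be told apart here, and their source was not tested.

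By amount of RNA, most of the gain lay at genes already well expressed in monoculture. Gain is a difference in counts, so a small fold change of an abundant gene outweighs a large one of a rare gene. Which cells made the gained RNA was not tested. Genes with a monoculture mean of 1000 or more gave 1215 of the 2590 rises (46.9%), and their summed gain was 5.95% of all co-culture counts. These sums leave out no called rise, so mitochondrial and noncoding genes can be part of them, unlike the ranking of gains above. The part of such genes in the sums was not measured. Genes between 100 and 1000 gave 506 rises (and 549 falls) with a gain of 0.526%, and genes between 10 and 100 gave 395 rises and 208 falls with 0.141%. At a mean above 0 and under 10 there were 367 rises with a gain of 0.0291%, of which 62 passed the filter without neurons. At 0 reads in all 3 monoculture libraries there were 107 rises with a gain of 0.00575%; none passed without neurons, and 51 were at 0 with TGF-β too. In these low classes genes were tested because co-culture was high, so the count of rises is not a rate.

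**Figure D4:**
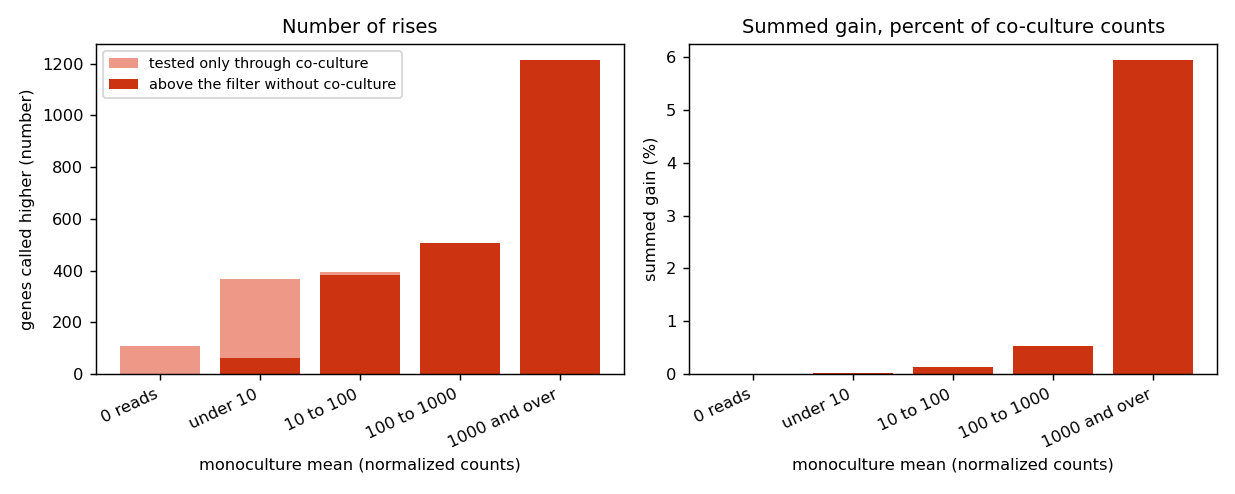
Number of genes called higher in co-culture (left) and their summed gain as a percent of all co-culture counts (right), by monoculture mean in normalized counts. Dark bars at left are genes that pass the expression filter in the 6 libraries without neurons. Genes of 1000 and over hold 1215 rises, and their summed gain is 5.95% of the counts, with mitochondrial and noncoding genes not left out.

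The largest co-culture levels among genes with a monoculture mean under 10 were those of matrix genes. Col3a1, a fibrillar collagen, had 6.49, 21.9 and 0 normalized counts alone, 7.52, 13.1 and 2.27 with TGF-β and 1151, 1382 and 1919.6 with neurons (log2 fold change 6.39 ± 0.40, adjusted p = 2.59e-08). Tnc, the matrix protein tenascin C, had 3.25, 0 and 0.775 and 1257, 1403 and 1318 (6.89 ± 0.25), and Col5a2 4.87, 0 and 0 and 716, 889 and 1139. The collagen Col5a1 (766 ± 146 in co-culture), the basement membrane proteins Nid1 (569.8 ± 32.3) and Hspg2 (535 ± 180.1), the matricellular Postn (568 ± 122) and the growth factor Ctgf (405 ± 96.1) followed. The other two of the 10 are not matrix genes: Camkk1, a kinase of the calcium and calmodulin pathway (3.25, 1.15 and 5.42 alone, 514, 611 and 789 with neurons), and Ecscr, a surface protein known from endothelium (9.71 ± 5.06 and 471 ± 67.7). Whether any of these transcripts was made by macrophages was not tested.

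**Figure D5:**
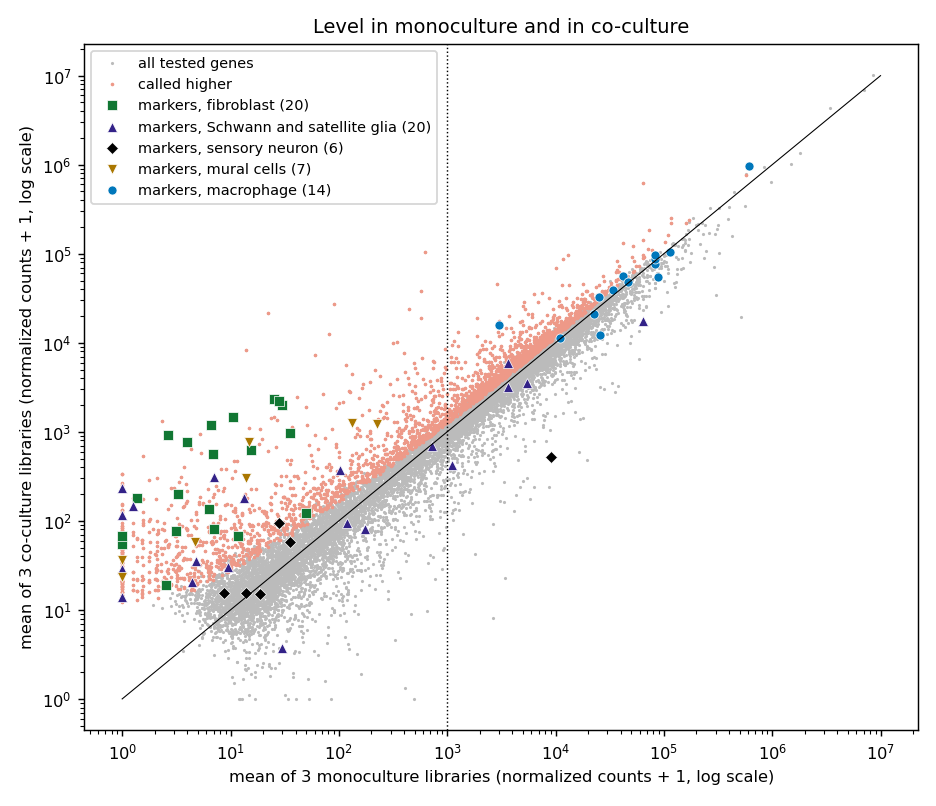
Mean of 3 co-culture libraries against mean of 3 monoculture libraries for all 16328 tested genes (grey; rises in pink), both in normalized counts plus 1 on log scales, with marker genes of 5 cell types as symbols. The line marks equality and the dotted line a monoculture mean of 1000; fibroblast and mural markers lie left of the dotted line and above equality, and the neuron marker Uchl1 lies right of it, below equality.

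To set well expressed rises beside these markers on 1 scale, the gain of each gene in normalized counts was divided by its exon length. Among markers of other cell types that were below 1000 normalized counts in monoculture, the largest gain was that of Sparc, at 578 normalized counts per kb, followed by Acta2 at 515, and the median over the 43 that rose was 30.0. Ednrb, a glial marker left out of that comparison because it was well expressed in monoculture, gained 527 per kb. Among 1214 well expressed rises with a known length the median gain was 295 per kb, and 370 of them (30.5%) gained more than Sparc. The 15 leading rises gained from 489 per kb (Sorl1, below Sparc) and 658 (Arhgap24, just above it) to 12900 (Ctsc). The part that RNA of other cells played was not tested for any well expressed rise, above or below Sparc. Genes of those cells outside the marker lists could gain more than Sparc.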

How the data were processed

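RNA of sorted macrophages was sequenced with the SMART-Seq Stranded Kit from 10 ng RNA per library, per the labels' protocols. The deposited values are a signal: gene read counts that the authors divided by 1 factor per library, read from the numbers themselves, since 100% of values were whole multiples of the smallest in their column (tolerance 0.05). The submitters' processing notes name bcl2fastq 2.20, STAR 2.7.3, DESeq2 1.24.0, R 3.6.1 and mm10. The counting program, its use of strand and its treatment of shared reads are not given in the sources used here.

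From these values, genes reaching 10 in at least 3 of the 9 libraries were tested (16328 of 24607) with limma 3.58.1 (R 4.3.3; intensity trend, robust variances) on log2(value + 10), in 1 fit of all 9 libraries with group as its factor. Adjustment was by Benjamini-Hochberg over all tested genes. The planned edgeR test became an alternative (edgeR 4.0.16, like DESeq2 1.42.0, on recovered reads) because the values are scaled. The scripts were tested on simulated data. The pseudocount shrinks the fold change of genes with few counts. Exon length and GC content came from GENCODE M21, with a match for 24335 identifiers, and promoters from RefSeq (GRCm38.p6), with a match for 14032.

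The genes described and the lists were chosen with earlier results of these data known. Named genes had to be called with no overlap of libraries. Left out were numbered gene models, mitochondrial, histone, receptor segment and ribosomal protein genes, the last except within function lists, and a set of genes put aside by name. Among well expressed genes the rule took the 15 largest log2 rises and falls and the 8 largest gains and losses in mean. It also took the 10 highest rises from a monoculture mean under 10, the 3 members of smallest p per function list, the 2 highest markers per list, and the 10 most abundant genes within 0.1 of no change. Other members of lists and families, the sort antigens and other-sex genes were named after their values were seen. Some results are not reported here. Depth sets the precision: 1 read was worth at most 1.62 normalized counts in the 6 libraries.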

Additional observations from a re-analysis of the deposited data

How the results depend on the processing

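Whether equal replicate numbers mark the same mouse is not stated. Sex followed the number in all 3 groups, but deviations of same-numbered monoculture and co-culture libraries correlated at -0.20, 0.04 and -0.21, and not every library correlated best with its own number, so the samples were not taken as pairs. With a replicate block 1177 well expressed genes rose and 1652 fell, and 2522 and 2404 over all tested genes; with length and GC trends removed, a correction chosen after seeing the data, 1243 and 1776. edgeR gave 1174 and 1768, DESeq2 1317 and 1816. Leaving out 1 library in turn gave 898 to 1125 rises and 1356 to 1685 falls of well expressed genes, 145 to 167 and 334 to 370 past 2-fold, and 1979 to 2579 and 1929 to 2347 over all tested genes, with 77.8 to 89.5% of the well expressed calls kept. The class itself moved counts past 1.5 times: from a monoculture mean of 100, 368 rises and 673 falls passed 2-fold; from 5000, 530 rose and 966 fell, 46 and 194 past 2-fold; by the mean of all 9 libraries, 242 rises passed 2-fold. No named gene reversed its direction with a call, 3061 values kept their side of the threshold, 18 lost and 7 gained a call, among them Ednrb and Psmd5, whose calls were lost in leave-one-out fits. Of the function list values 1499 stayed close and 97 moved. The cause of these shifts was not tested.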

Other observations

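Some families not described so far are given by count, beside 14.6% higher and 20.3% lower over all well expressed genes. Of 131 well expressed zinc finger genes with Zfp symbols 23 rose (17.6%) and 11 fell (8.4%). Zfp704 (1.33 ± 0.20) and Zfp609 (1.05 ± 0.10) were the largest rises and Zfp275 (-0.79 ± 0.11) the largest fall. With equal totals 32 Zfp genes rose and 7 fell. Histone genes of the Hist clusters hardly changed, with 1 rise and no fall among 50, and 3 and 0 with equal totals. Large-subunit genes of the mitochondrial ribosome (Mrpl) had 6 rises and 1 fall of 47, and small-subunit genes (Mrps) no rise and 2 falls of 28; with equal totals the rises were 9 and 3. The difference between the 2 subunits was not tested.

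Falls were most frequent among the most abundant genes. Of 5 classes of equal size by monoculture mean, in the highest 30.7% fell and 12.4% rose, with a median log2 fold change of -0.07, and in the lowest 15.5% fell and 13.2% rose.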
